A study of Mus musculus with 27 samples.

Results

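The cadherin superfamily members described here are the 55 mouse genes whose symbol is Cdh followed by a number or begins with Pcdh, out of 19301 genes measured with a single gene symbol on the array. They comprise 22 numbered cadherins and 33 protocadherins. Each gene was represented by 1 probe set, the one with the highest mean over all 27 arrays. Of the numbered cadherins, 5 are type I classical cadherins, 12 are type II and 5 are atypical. Of the protocadherins, 21 belong to the clustered beta family and 12 are non-clustered, with 4 of the delta-1 kind, 5 of the delta-2 kind and 3 others. RefSeq lists 22 mouse beta genes, and only Pcdhb11 was not measured under this rule. No probe set carried a clustered gamma symbol, so gamma genes could not be analysed here. A probe set that carries 14 alpha symbols did not meet the rule, and its log2 values lay between 2.31 and 2.95 on all arrays.

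Classical cadherins are calcium-dependent adhesion molecules that bind like molecules on neighbouring cells and are tied to the actin cytoskeleton by catenins. Clustered protocadherins are encoded by tandem variable exons, each with its own promoter, and neurons choose among them in combinations that allow a cell to tell its own branches from those of others. Non-clustered protocadherins and type II cadherins mark subsets of neurons and circuits, and a few atypical members form extracellular links in sensory cells. In the retina, starburst amacrine cells are a well known case in which clustered protocadherins of the gamma family are needed for dendrites of one cell to avoid each other.

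The study sorted fluorescent cells from dissociated retinas of adult mice and measured 9 groups of 3 arrays, with 200 cells per array by the labels' protocol. Arc amacrine cells carried EGFP from the transgene Tg(Arc-EGFP)194Gsat/Mmcd. Cone photoreceptors carried EGFP from the transgene Tg(Chrnb4-EGFP)1Gsat. Starburst amacrine cells carried RFP from Rosa26-LSL-RFP, switched on by Cre from the Chat gene (129S6-Chat_tm1(cre)Lowl/J), so any cell with a history of Chat-driven Cre could be labelled. Mixtures in order of cone share held 50, 75, 100, 150, 157 or 183 cone cells, with starburst cells making up the rest of the 200. No treatment was given. For all groups the labels name a mix of C57BL/6J with an FVB/N-Swiss Webster hybrid as background, and the growth protocol says that the hybrid mice carried a recessive photoreceptor degeneration mutation. Retinas were pooled, 2 from the cone line and 6 from the starburst line, and the titration was sorted 3 times from different mice. Titles call the arrays of each group biological replicates. Cell type and mouse line cannot be told apart in these comparisons.

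The marker genes of the labelled cells were present on their arrays. Summed on the linear scale, 9 cone markers such as Opn1mw and Arr3 reached 5121 to 12688 on pure cone arrays, against 97.3 to 289 on pure starburst arrays. The third pure cone array had the lowest of these sums. Summed rod markers reached 2781 to 4214 on cone arrays, against 519 to 991 on starburst arrays and 293 to 478 on Arc arrays. Among them Sag had log2 values of 11.06, 11.02 and 10.95 on cone arrays, against 8.10, 8.87 and 7.70 on starburst arrays. Starburst markers such as Slc18a3 reached 41.3 to 53.4 on Arc arrays, 55.4 to 97.0 on cone arrays and 2533 to 2756 on starburst arrays. Among them Slc18a3 had log2 values of 10.6, 10.8 and 10.6 on starburst arrays, against 3.56, 3.10 and 2.81 on cone arrays. Chat had 3.85, 3.81 and 4.58 on starburst arrays, against 3.21, 2.87 and 3.05 on cone arrays. Markers of amacrine cells in general reached 1024 to 1221 on Arc arrays, against 767 to 796 on starburst arrays. Array medians lay between 2.78 and 2.89 on the log2 scale, and replicates of a group correlated at 0.935 to 0.979 across probe sets.

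All values below are the deposited log2 values, and a difference of 1 is a doubling on that scale. A gene was tested if it exceeded 2.83, the median of all values, on at least 3 arrays. It was called if limma's adjusted p over 12441 tested genes was under 0.05 and the absolute log2 difference was at least 1. Of the 55 members, 38 were tested and 17 were not. The tested ones were 4 of 5 type I, 5 of 12 type II and 1 of 5 atypical cadherins, 18 of 21 beta, 2 of 4 delta-1 and 5 of 5 delta-2 protocadherins, and 3 of 3 others. Each error is the standard error (SE) of the joint fit to 27 arrays, where every group has n = 3. With so few arrays the precision is limited, and the arrays cannot separate fewer expressing cells from less RNA per cell. Levels of different probe sets are not comparable with each other.

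Clustered beta protocadherins were the kind with the most differences between pure cone and pure starburst cells. In cones 9 of the 18 tested beta genes fell and 0 rose, by 1.12 to 3.28 on the log2 scale. Over all members 12 were called, 11 lower and 1 higher in cones. Over all tested genes 8.42% were called, 5.79% lower and 2.64% higher. Without a filter 20 of the 21 beta genes had a negative difference, with a median of -0.87, against 0.0069 over all genes. Near-identical beta copies can share probes, so a signal assigned to one gene may come in part from another.

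Pcdhb12 had log2 values of 2.95, 2.31 and 2.01 on cone arrays, against 5.60, 5.65 and 5.86 on starburst arrays. Every cone array lay far below every starburst array, and 2 of the 3 cone values were under the filter level. The difference was -3.28 (SE 0.36, adjusted p = 9.5e-07), a fold of 9.70 that depends on the array's background at the cone end. Pcdhb7 had 2.42, 3.14 and 3.56 on cone arrays, against 5.84, 6.16 and 5.70 on starburst arrays. The groups did not overlap, and the difference was -2.86 (SE 0.32, adjusted p = 1.2e-06). Pcdhb15 had 4.07, 3.83 and 3.99 on cone arrays, against 6.46, 6.47 and 7.08 on starburst arrays. Its cone values were tightly grouped and above the filter level, and the difference was -2.71 (SE 0.42, adjusted p = 8.3e-05).

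Pcdhb3 had 5.26, 6.24 and 6.72 on cone arrays, against 8.57, 8.69 and 9.0 on starburst arrays. It remained well above the filter level in cones, and the difference of -2.68 (SE 0.29, adjusted p = 8.2e-07) was larger than the spread among the cone arrays. Pcdhb9 had 3.67, 1.61 and 2.58 on cone arrays, against 5.07, 5.08 and 5.22 on starburst arrays. The cone arrays were widely scattered and the starburst arrays nearly equal, with a difference of -2.50 (SE 0.43, adjusted p = 2.5e-04). Pcdhb17 had 4.32, 5.33 and 5.56 on cone arrays, against 7.19, 7.26 and 7.39 on starburst arrays, a difference of -2.21 (SE 0.30, adjusted p = 2.0e-05). All cone values of Pcdhb17 were above the filter level and below all starburst values.

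Pcdhb10 had 3.29, 1.95 and 2.14 on cone arrays, against 4.05, 4.41 and 4.81 on starburst arrays, a difference of -1.96 (SE 0.34, adjusted p = 3.2e-04). The first cone array was the only one above the filter level. Pcdhb21 had 2.40, 2.2 and 1.80 on cone arrays, against 4.80, 3.83 and 3.00 on starburst arrays, a difference of -1.74 (SE 0.41, adjusted p = 0.0055). The starburst values were spread more widely than that difference. All cone values of Pcdhb21 were under the filter level, so its size also depends on the background. Leaving out the first starburst array gave -1.28 (adjusted p = 0.052), which was not called, and with only the cone and starburst arrays in the fit the adjusted p was 0.057. Pcdhb8 had 3.08, 3.44 and 2.86 on cone arrays, against 4.67, 3.92 and 4.15 on starburst arrays, a difference of -1.12 (SE 0.33, adjusted p = 0.025). Its call was lost when any of 4 single arrays was left out, with adjusted p of 0.128 without the first starburst, 0.050 without the third starburst, 0.064 without the first cone and 0.094 without the third cone array.

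Another 3 beta genes had an adjusted p under 0.05 with a difference smaller than 1, namely Pcdhb14 at -0.91, Pcdhb20 at -0.87 and Pcdhb5 at -0.76. Without a minimum difference 9.69% of all tested genes were lower in cones. With each array left out in turn Pcdhb14 ranged from -1.09 to -0.74, passing the minimum in 2 of 6 cases and reaching an adjusted p as high as 0.12. Pcdhb5 ranged from -0.89 to -0.54 in the same way, with an adjusted p of up to 0.19. Pcdhb16 was not called. Its values were 3.56, 3.19 and 5.24 on cone arrays, against 4.10, 4.37 and 4.32 on starburst arrays, with the third cone array standing above all others. Along the cluster the called genes were Pcdhb3, Pcdhb7 to Pcdhb10, Pcdhb12, Pcdhb15, Pcdhb17 and Pcdhb21, so uncalled genes lay between them. When the third arrays of the 4 cone-rich groups were left out, which was chosen after seeing the data, 12 members were again called and 11 were shared, with Pcdhb14 in place of Pcdhb8.

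**Figure D1:**
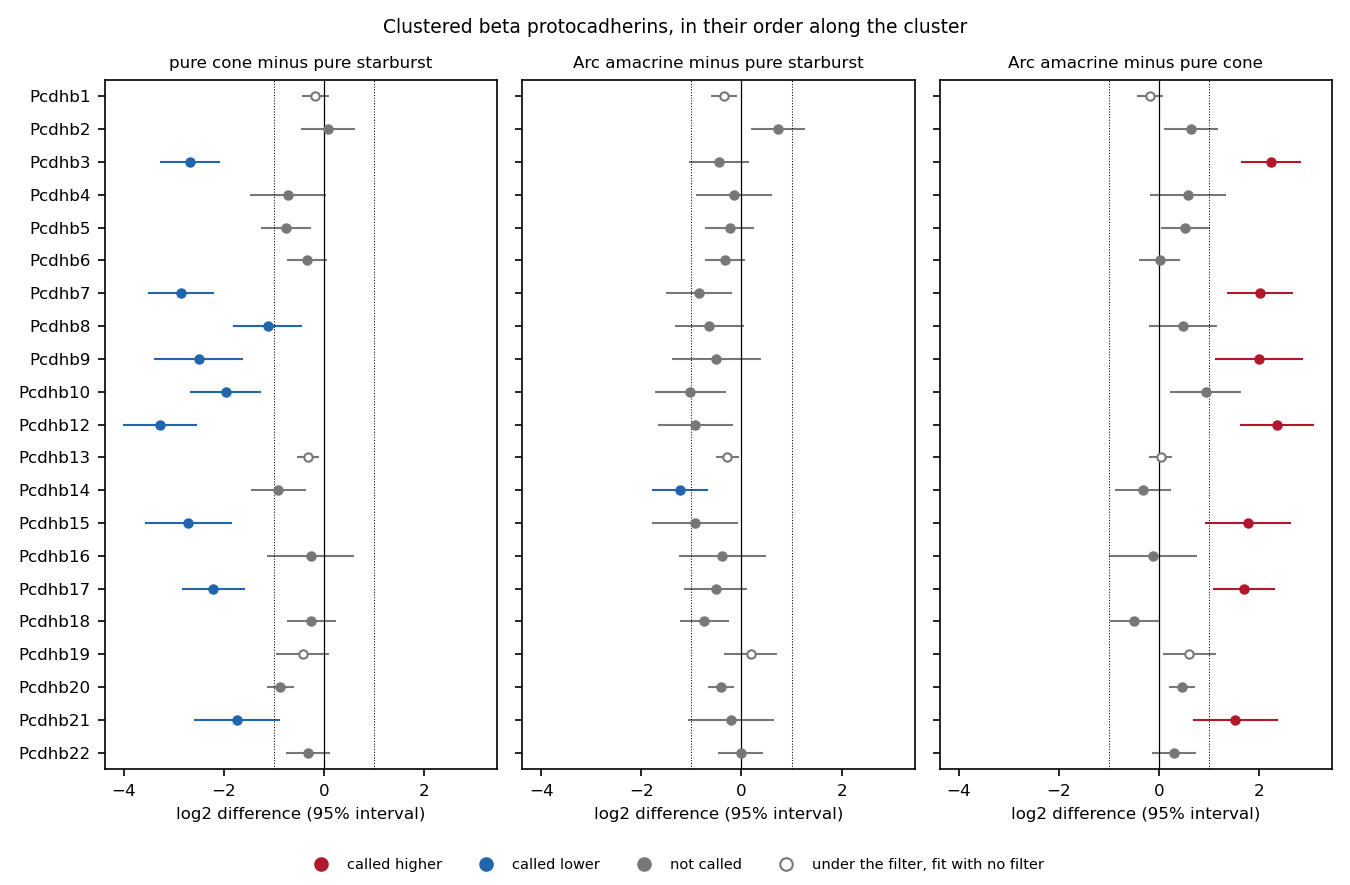
Log2 differences with 95% intervals for the 21 measured beta protocadherins in cluster order, for cone minus starburst, Arc minus starburst and Arc minus cone, with called genes coloured and hollow points for 3 genes under the filter. In the cone minus starburst panel 9 genes lie at -1.12 or lower, and in the Arc minus cone panel 7 lie at 1.53 or higher.

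**Figure D2:**
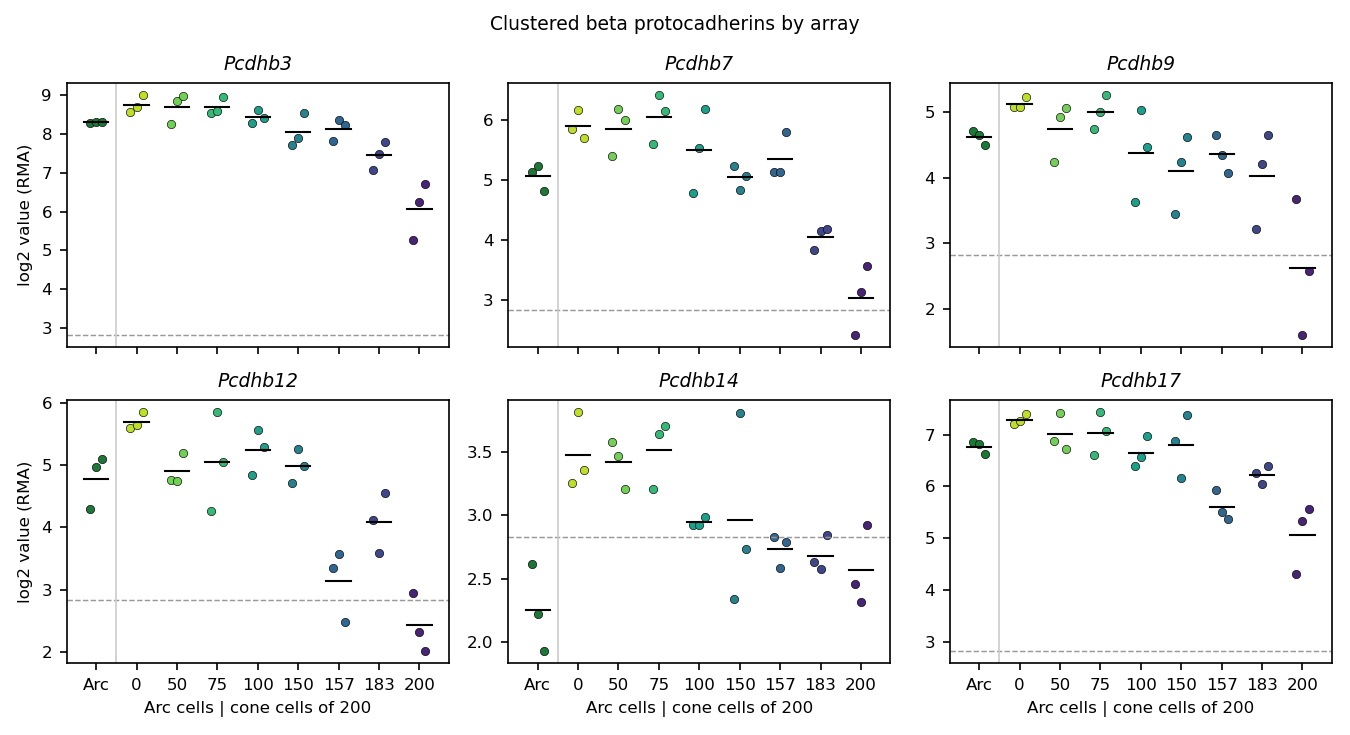
Log2 values on each array for 6 beta protocadherins, with Arc arrays at the left, then starburst, mixtures and cone arrays by number of cone cells among 200. Bars are means of 3 arrays and the dashed line is the filter level of 2.83. Pcdhb3, Pcdhb7, Pcdhb9, Pcdhb12 and Pcdhb17 are lowest on pure cone arrays, while Pcdhb14 is lowest on Arc arrays.

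Outside the beta cluster, 2 members fell and 1 rose in cones among 20 tested. Over all tested genes 5.79% were called lower and 2.64% higher in cones. The median difference over the 34 non-clustered members was 0.0082 without a filter. The promoters of these 3 genes are shown because they carried the non-clustered differences. They are the 250 bases before the start in RefSeq (GRCm38.p6), and 21 of the 55 members had an entry in that table. Capitals mark a match on either strand to GGGCGG (the GC box) or TATAAA (the TATA box).
Cdh6 (chr15:13173676-13173925, minus strand): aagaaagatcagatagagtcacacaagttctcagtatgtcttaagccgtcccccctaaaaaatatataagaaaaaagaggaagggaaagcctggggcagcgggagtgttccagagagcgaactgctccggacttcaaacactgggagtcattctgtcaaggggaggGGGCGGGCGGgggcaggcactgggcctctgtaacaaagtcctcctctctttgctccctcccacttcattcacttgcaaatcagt
Pcdh10 (chr3:45378148-45378397, plus strand): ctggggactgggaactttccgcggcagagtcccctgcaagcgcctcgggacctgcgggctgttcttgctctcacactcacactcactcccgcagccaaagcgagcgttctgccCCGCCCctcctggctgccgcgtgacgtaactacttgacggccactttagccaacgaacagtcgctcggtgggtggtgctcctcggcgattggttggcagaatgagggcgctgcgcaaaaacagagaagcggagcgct
Pcdh15 (chr10:73821617-73821866, plus strand): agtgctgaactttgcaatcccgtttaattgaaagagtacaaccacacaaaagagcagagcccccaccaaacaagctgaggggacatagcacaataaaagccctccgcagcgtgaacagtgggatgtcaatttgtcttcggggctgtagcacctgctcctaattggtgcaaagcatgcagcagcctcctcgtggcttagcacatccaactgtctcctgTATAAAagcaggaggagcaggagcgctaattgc
The Cdh6 sequence held an overlapping pair of GC boxes, the Pcdh10 sequence held 1 on the reverse strand beginning 137 bases before the start, and Pcdh15 held none. A TATA box was found in Pcdh15 alone, beginning 33 bases before the start. Among 32851 mouse promoters of the same length 32.7% held GGGCGG and 12.4% held TATAAA. The core recognised by the photoreceptor factor Crx, TAATCC, was found in none of the 3 and in 6.25% of all promoters. The GC content was 51.2% for Cdh6, 63.2% for Pcdh10 and 50.4% for Pcdh15.

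Cdh6, a type II cadherin found in neurons of the direction-selective circuit, had log2 values of 3.82, 3.52 and 3.53 on cone arrays, against 5.37, 6.02 and 5.39 on starburst arrays. The groups were well apart, with a difference of -1.97 (SE 0.25, adjusted p = 6.2e-06). Pcdh10, a delta-2 protocadherin that takes part in axon growth, had 3.25, 2.97 and 3.18 on cone arrays, against 4.94, 4.81 and 4.80 on starburst arrays. Replicates were close in both groups, and the difference was -1.72 (SE 0.19, adjusted p = 8.7e-07). Neither call was lost when any single array was left out.

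Pcdh15, whose protein joins that of Cdh23 in the tip links of hair cells and is mutated in Usher syndrome, was the 1 member that rose in cones. It had 5.19, 5.26 and 3.79 on cone arrays, against 2.46, 2.35 and 2.43 on starburst arrays. All starburst values were under the filter level, and the third cone array was between them and the other two. The difference was 2.34 (SE 0.27, adjusted p = 2.2e-06), and it was 2.82 without the third cone array. On that array the summed cone markers were 5121, against 12688 and 12306 on the other cone arrays. Its summed rod markers were 4214, against 2816 and 2781. Gnat1 had a log2 value of 10.41 on that array, against 8.11 and 8.28, while Sag had 10.95, against 11.06 and 11.02. Of the 6 tested rod markers only Pde6g and Sag were called higher in cones than in starburst cells. The part of cones and rods in the Pcdh15 values was not tested. A second Pcdh15 probe set showed no such difference, at -0.043 (adjusted p = 0.92), with values between 2.48 and 3.50 on all arrays. The mean of both probe sets gave 1.15 (adjusted p = 1.8e-05). Cdh23 itself lay between 2.08 and 2.53 on all arrays and never passed the filter level.

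Pcdh8, a delta-2 protocadherin induced by neuronal activity, had a difference of -0.59 (adjusted p = 0.023) in cones, and Cdh8, a type II cadherin of certain bipolar cells, had 0.67 (adjusted p = 0.049). Neither reached a difference of 1. The adjusted p of Pcdh8 reached 0.096 with 1 array left out, and all its cone values were under the filter level. The value of Cdh8 was 0.35 without the third cone array, and its adjusted p reached 0.31 with 1 array left out. Summed bipolar markers were 98.6 to 135 on cone arrays, against 31.4 to 53.6 on starburst arrays. Grm6, Trpm1 and Prkca were at or under the filter level in both groups. Of the 4 tested bipolar markers only Cabp5 and Otx2 were called higher in cones. The part of bipolar cells in the Cdh8 values was not tested. Pcdh8 and Cdh8 were 2 of the 17 tested non-clustered members with no call in this comparison.

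**Figure D3:**
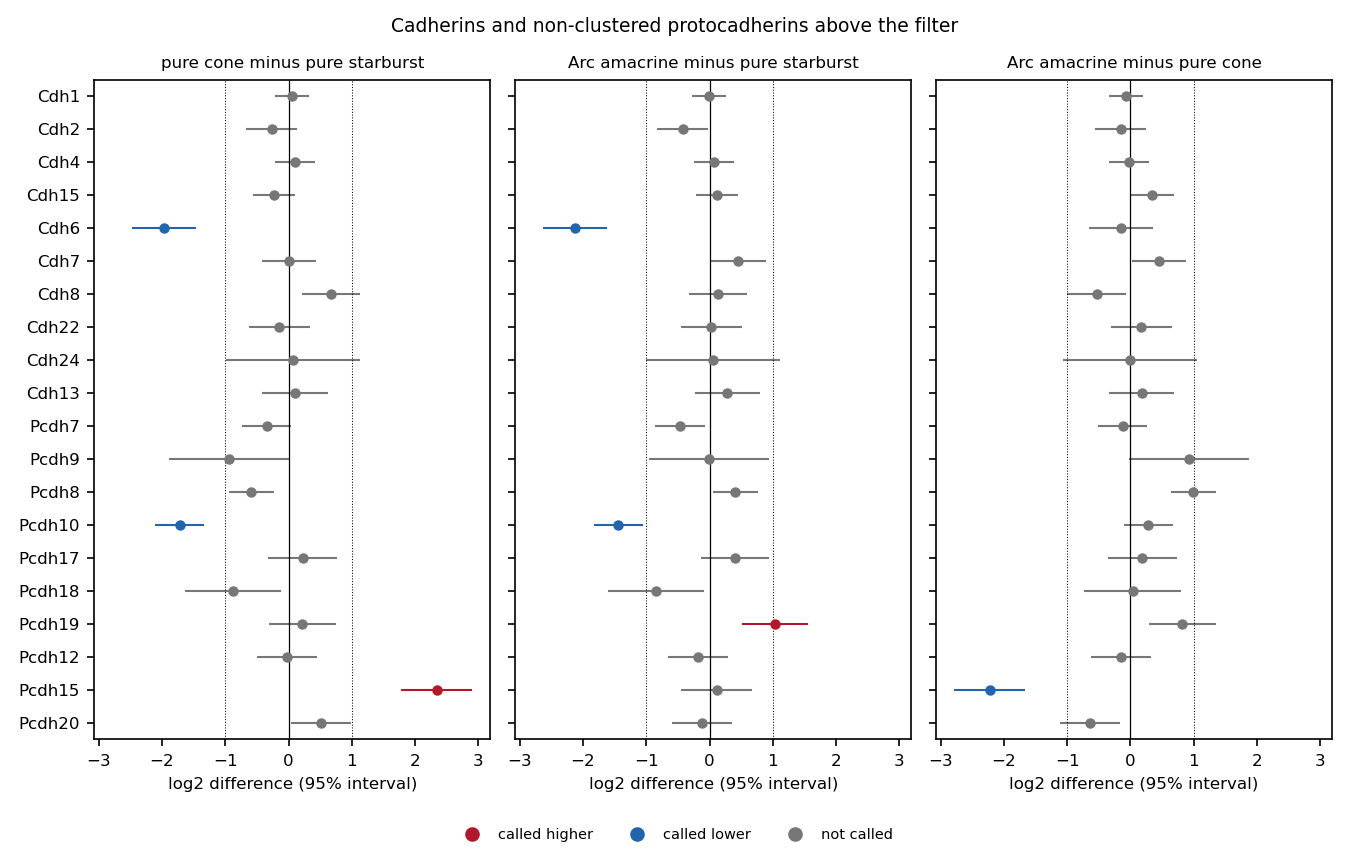
Log2 differences with 95% intervals for the 20 tested numbered cadherins and non-clustered protocadherins in the same 3 comparisons. Cdh6 and Pcdh10 lie left of -1 in both comparisons with starburst cells, and Pcdh15 lies at 2.34 in cones against starburst cells and at -2.22 in Arc cells against cones.

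**Figure D4:**
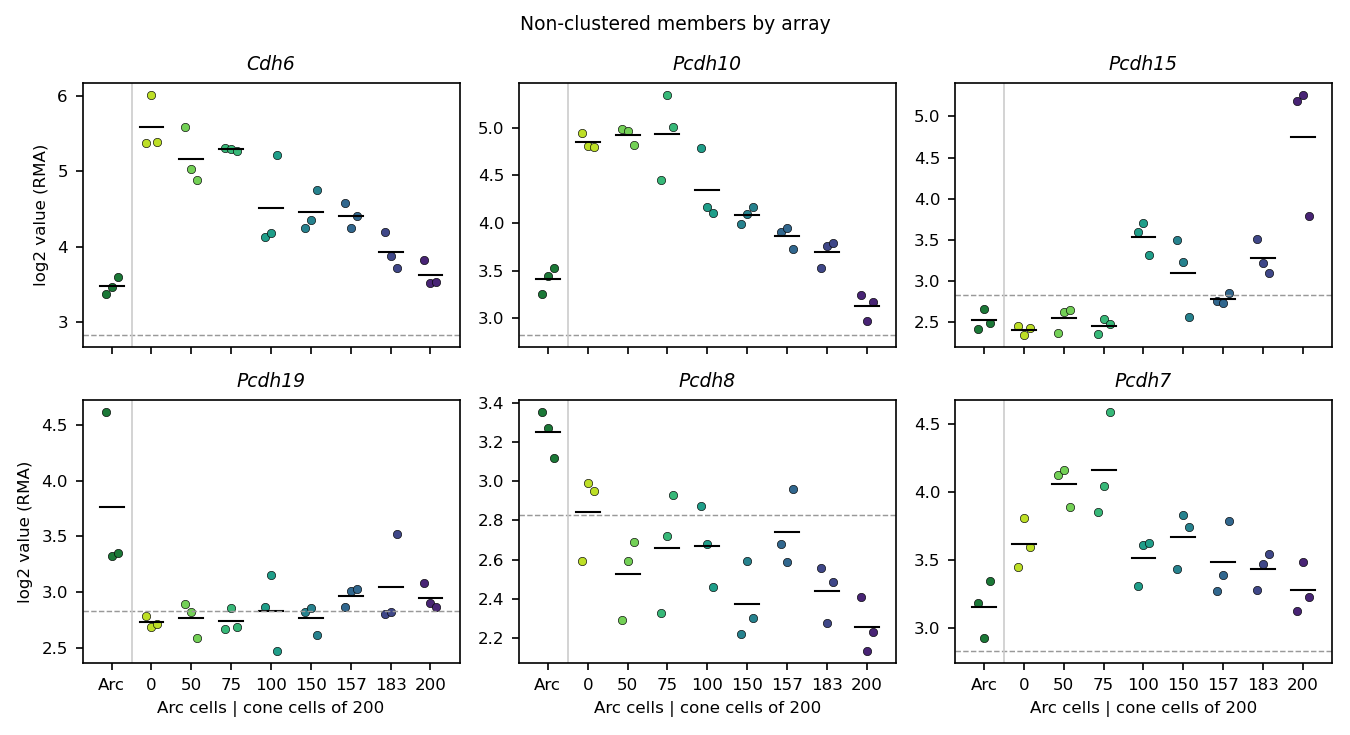
Log2 values on each array for 6 non-clustered members, with Arc arrays at the left, then starburst, mixtures and cone arrays by number of cone cells among 200. Bars are means of 3 arrays and the dashed line is the filter level. Cdh6 and Pcdh10 are highest on starburst-rich arrays, and Pcdh15 is highest on the pure cone arrays, with 2 of the 3 above 5.

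Arc amacrine cells differed from starburst cells at 4 members, with 1 higher and 3 lower in Arc cells. Over all tested genes 3.55% were called, 2.16% higher and 1.39% lower. This comparison sets an amacrine population marked by Arc-EGFP against the cholinergic one. Cdh6 had 3.37, 3.46 and 3.60 on Arc arrays, against 5.37, 6.02 and 5.39 on starburst arrays, a difference of -2.12 (SE 0.25, adjusted p = 2.9e-06). Pcdh10 had 3.25, 3.44 and 3.52 on Arc arrays, against 4.94, 4.81 and 4.80 on starburst arrays, a difference of -1.44 (SE 0.19, adjusted p = 1.5e-05). For both genes all Arc values lay more than 1 below all starburst values.

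Pcdhb14 was the only beta gene called between the amacrine populations. It had 2.61, 2.22 and 1.93 on Arc arrays, against 3.25, 3.82 and 3.36 on starburst arrays, a difference of -1.22 (SE 0.27, adjusted p = 0.0056). All Arc values of Pcdhb14 were under the filter level, so the size of the difference depends on the background. Pcdhb10 had a difference of -1.02, but its adjusted p was 0.093. The beta genes as a kind had 19 of 21 negative differences without a filter, with a median of -0.40 against -0.0065 over all genes. Pcdhb8 was not called, at -0.64 (adjusted p = 0.36). It ranged from -1.16 (adjusted p = 0.018) without the first Arc array to -0.36 (adjusted p = 0.77) without the third.

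Pcdh19, a delta-2 protocadherin mutated in an epilepsy of females, rose in Arc cells. It had 4.62, 3.32 and 3.35 on Arc arrays, against 2.78, 2.68 and 2.72 on starburst arrays. The groups did not overlap, but the first Arc array stood far above the other two. The difference was 1.04 (SE 0.25, adjusted p = 0.013). It was 0.61 (adjusted p = 0.11) without the first Arc array and 1.01 (adjusted p = 0.051) without the second starburst array, and neither was called. With only the Arc and starburst arrays in the fit the adjusted p was 0.14, and quantile normalization brought the difference to 0.93. Summed ganglion cell markers were 192, 155 and 117 on the Arc arrays, against 48.7 to 68.4 on starburst arrays. Of the 4 tested ganglion cell markers only Thy1 was called higher in Arc cells. Rbpms and Pou4f1 were at or under the filter level in both groups. The part of ganglion cells in the Pcdh19 values was not tested.

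Arc amacrine cells and cones differed at 8 members, with 7 higher and 1 lower in Arc cells. Over all tested genes 10.3% were called, 7.83% higher and 2.51% lower. The 7 were beta protocadherins that were also called lower in cones than in starburst cells, and both comparisons use the same cone arrays. Pcdhb12 had 4.29, 4.97 and 5.09 on Arc arrays, against 2.95, 2.31 and 2.01 on cone arrays, a difference of 2.36 (SE 0.36, adjusted p = 4.9e-05). Pcdhb3 had 8.29, 8.31 and 8.31 on Arc arrays, against 5.26, 6.24 and 6.72 on cone arrays, a difference of 2.23 (SE 0.29, adjusted p = 6.9e-06). The Arc arrays were nearly equal for Pcdhb3 and did not overlap the cone arrays for either gene.

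Pcdhb7 had 5.13, 5.23 and 4.82 on Arc arrays, against 2.42, 3.14 and 3.56 on cone arrays, a difference of 2.02 (SE 0.32, adjusted p = 7.7e-05). Pcdhb9 had 4.71, 4.65 and 4.49 on Arc arrays, against 3.67, 1.61 and 2.58 on cone arrays, a difference of 2.0 (SE 0.43, adjusted p = 0.0018). In both genes the Arc arrays were close together and the cone arrays were the scattered ones. Pcdhb15 was 1.78 higher (SE 0.42, adjusted p = 0.0040) and Pcdhb17 was 1.7 higher (SE 0.30, adjusted p = 3.1e-04) in Arc cells. Pcdhb21 had 3.61, 3.23 and 4.15 on Arc arrays, against 2.40, 2.2 and 1.80 on cone arrays, a difference of 1.53 (SE 0.41, adjusted p = 0.012). Its adjusted p was 0.053 without the third cone array and 0.066 without the third Arc array. Cone values under the filter level make the sizes for Pcdhb12, Pcdhb9 and Pcdhb21 depend on the background here too.

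Over all 21 beta genes the median difference of Arc from cone cells was 0.58 without a filter, against -0.017 over all genes, and 17 were positive. Pcdhb10 was 0.94 higher with an adjusted p of 0.061, and with 1 array left out it ranged from 0.68 to 1.36, with a call only without the first cone array (adjusted p = 0.0069). Among the delta-2 protocadherins, Pcdh8 had 3.35, 3.27 and 3.12 on Arc arrays, against 2.41, 2.13 and 2.23 on cone arrays. The groups were well apart, but the difference of 0.99 (SE 0.17, adjusted p = 2.3e-04) was just under the minimum. It passed the minimum without the first cone array (1.07), without the third Arc array (1.06) and with arrays centred on their median (1.00). All cone values of Pcdh8 were under the filter level, so the size of its difference depends on the background. Pcdh19 was 0.82 higher in Arc cells (adjusted p = 0.027), under the minimum. It was 0.39 (adjusted p = 0.23) without the first Arc array, and it was called without the second (1.04) or the third (1.03).

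Pcdh15 was the member that fell in Arc cells relative to cones. It had 2.42, 2.66 and 2.49 on Arc arrays, against 5.19, 5.26 and 3.79 on cone arrays, a difference of -2.22 (SE 0.27, adjusted p = 3.3e-06). All Arc values were under the filter level, as were all starburst values. The mean of the gene's probe sets gave -1.10 (adjusted p = 2.0e-05).

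The mixture arrays did not enter the group means compared above. They entered through the shared estimate of the spread, the filter and the choice of probe set. Mixtures with 50, 100 and 150 cones were sorted from the same pools as the pure arrays, and the labels do not say whether those with 75, 157 and 183 cones were. A slope on cone share was fitted to the means of the 6 mixtures and is given as the log2 change for a full change from no cones to all cones. It fell for 11 members and rose for 0. Over all tested genes 6.63% had a called slope, 5.02% lower and 1.62% higher. Of the 11 members called lower in cones, 8 also had a called falling slope, and the same 8 are 8 of the 11 with a called slope. These were Cdh6, Pcdh10, Pcdhb3, Pcdhb7, Pcdhb8, Pcdhb10, Pcdhb12 and Pcdhb17, and the 3 with a called slope alone were Pcdhb4, Pcdhb14 and Pcdh7. How many of all tested genes were called lower in both comparisons was not counted, so this overlap is a description.

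Pcdhb10 averaged 3.81 ± 0.52, 4.54 ± 0.39, 3.67 ± 0.26, 3.14 ± 0.65, 2.97 ± 0.16 and 2.53 ± 0.25 (SD, n = 3 arrays) in mixtures with 50, 75, 100, 150, 157 and 183 cones. The level was highest at 75 cones and under the filter level at 183, with a slope of -2.42 (SE 0.41, adjusted p = 7.0e-04). Pcdhb7 averaged 5.85 ± 0.41, 6.05 ± 0.42, 5.50 ± 0.70, 5.04 ± 0.20, 5.35 ± 0.38 and 4.06 ± 0.20 in the same order, a slope of -2.36 (SE 0.38, adjusted p = 4.4e-04). Its means at 50 and 75 cones were within the spread of the starburst arrays, which averaged 5.90 ± 0.24 and ran from 5.70 to 6.16. Single arrays of these mixtures ran from 5.39 to 6.41, beyond the starburst range on both sides. Pcdhb12 averaged 4.90 ± 0.26, 5.06 ± 0.80, 5.24 ± 0.36, 4.99 ± 0.28, 3.13 ± 0.58 and 4.09 ± 0.48, a slope of -1.91 (SE 0.43, adjusted p = 0.0067). The mixture with 157 cones lay below the one with 183, so the order was not a steady decline.

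Pcdhb3 had a slope of -1.70 (SE 0.35, adjusted p = 0.0032), Pcdhb8 had -1.66 (SE 0.40, adjusted p = 0.011) and Pcdhb17 had -1.52 (SE 0.37, adjusted p = 0.010). With quantile normalization the adjusted p of Pcdhb17 was 0.070. Pcdhb4 had a slope of -1.58 (SE 0.44, adjusted p = 0.029). Its adjusted p was 0.12 without the first array at 50 cones, 0.063 without the second at 75 cones, and 0.060 and 0.053 without the first and the third at 183 cones. It was 0.057 without the third arrays of the cone-rich groups, and over the 5 titration groups the slope was -0.78 (adjusted p = 0.11). Pcdhb14 had a slope of -1.21 (SE 0.32, adjusted p = 0.021), with adjusted p of 0.064, 0.056 and 0.056 when the first or second array at 50 cones or the second at 183 cones was left out. All 21 beta genes had a negative slope without a filter, with a median of -1.21, against -0.016 over all genes.

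Pcdhb15 was not called, with a slope of -1.40 (SE 0.51, adjusted p = 0.090). With replicate number as a block its adjusted p was 0.033, which was called. Without the first array at 100 cones, the third at 150 or the third at 183 it was also called, at -1.52, -1.63 and -1.73. When the third arrays of the cone-rich groups were left out the slope was -2.13 (adjusted p = 0.0029). Summed cone markers on the third arrays at 150, 157 and 183 cones were 3220, 1770 and 3729. The other arrays of these groups had 8920 to 12026. At 75 cones the third array also had a low sum of 653, against 3069 and 2927. That array was not among those left out.

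Cdh6 averaged 5.17 ± 0.37, 5.29 ± 0.02, 4.51 ± 0.61, 4.45 ± 0.27, 4.41 ± 0.17 and 3.93 ± 0.24 by increasing cone number, a slope of -1.81 (SE 0.30, adjusted p = 4.9e-04). Pcdh10 averaged 4.92 ± 0.09, 4.93 ± 0.45, 4.35 ± 0.38, 4.09 ± 0.09, 3.86 ± 0.11 and 3.69 ± 0.14, a slope of -1.98 (SE 0.23, adjusted p = 1.2e-05). Both were lower from 100 cones onward and kept their call whichever array was left out. Pcdh7, a delta-1 protocadherin with a role in axon guidance, had a slope of -1.01 (SE 0.23, adjusted p = 0.0066), just past the minimum. The size dropped under 1 when any of 9 single arrays was left out, and it was -0.43 over the 5 titration groups. Pcdh7 was not called between pure cells, at 3.28 ± 0.19 in cones and 3.62 ± 0.18 in starburst cells.

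Pcdh15 had a slope of 0.85 (SE 0.33, adjusted p = 0.12), which was not called. Its 3 values were 3.60, 3.70 and 3.32 at 100 cones, 3.50, 3.23 and 2.57 at 150, 2.75, 2.73 and 2.86 at 157, and 3.51, 3.22 and 3.09 at 183. All of these lay below the lowest pure cone value of 3.79. Without the third arrays of the cone-rich groups the slope was 1.03 (adjusted p = 8.5e-04), and over the 5 titration groups, which include the pure cells, it was 2.09 (adjusted p = 2.1e-06). Of the 9 cone markers, limma called 0 slopes (8 at an unadjusted p under 0.05), and their median slope was 2.04.

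To place the mixtures between the pure groups, antilogs of the values were taken and expressed as percent of the way from the starburst mean to the cone mean. Over the 9 beta genes that fell in cones, the median position was 37.4% ± 19.6 at a cone share of 25%, 7.81% ± 21.3 at 37.5% and 39.4% ± 21.1 at 50% (SD, n = 3 arrays). It was 55.8% ± 10.5 at 75%, 78.0% ± 4.80 at 78.5% and 78.8% ± 15.8 at 91.5%. The position thus stood above the cell share only at 25%, where the arrays spread from 15.8% to 53.9%. These genes were chosen by the difference of the pure arrays that set the scale, so the positions are a description. At 91.5% Cdh6 was at 91.9% ± 7.09 and Pcdh10 at 79.1% ± 6.26, while Pcdh15 was at 18.3% ± 6.14. Starburst marker sums at that share were 1026 to 1257, between 55.4 to 97.0 on cone arrays and 2533 to 2756 on starburst arrays.

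**Figure D5:**
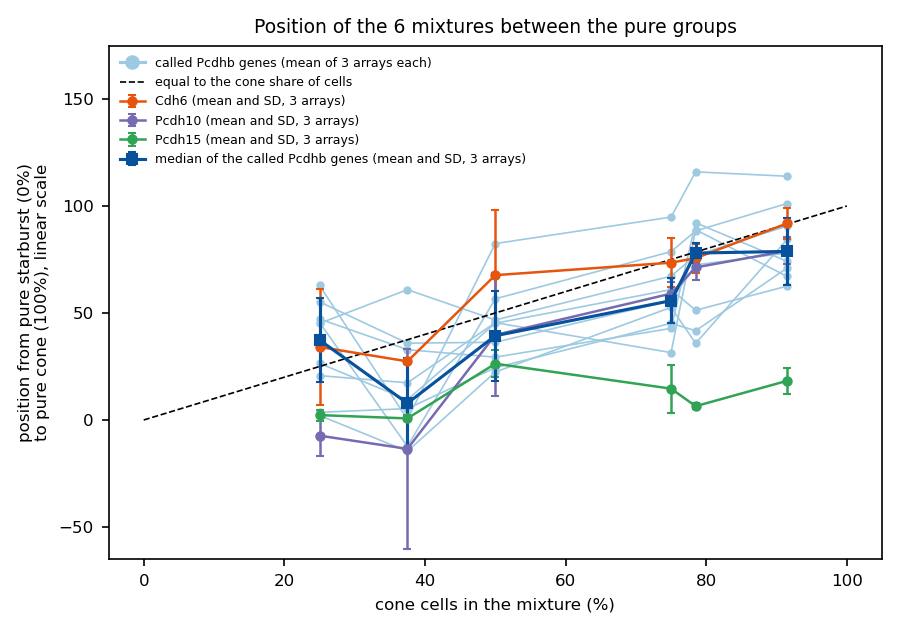
Position of each mixture between pure starburst (0%) and pure cone (100%) on the linear scale, against the percent of cone cells, for the 9 called beta genes, their median, Cdh6, Pcdh10 and Pcdh15, with SD bars over 3 arrays where shown. The median of the beta genes is 78.8% at a cone share of 91.5%, and Pcdh15 is at 18.3% there.

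The remaining members showed levels with no called difference. Among type I cadherins, Cdh1 (E-cadherin of epithelia) lay between 2.85 and 3.38 and Cdh4 (R-cadherin, first described in retina) between 2.92 and 3.49 on all 27 arrays. Cdh2, the N-cadherin of neural tissue, lay between 2.47 and 3.24. It had 2.8 ± 0.23 in cones and 3.07 ± 0.12 in starburst cells, with an adjusted p of 0.43 for the difference of -0.26. Cdh24, a type II cadherin, was scattered, with 5.93 on 1 array at 100 cones and 5.58 on 1 array at 150 cones against 3.14 to 4.45 elsewhere. Cdh22 lay between 2.51 and 3.60. Cdh12, another type II cadherin, was above the filter level on 2 arrays and was not tested. It had 3.29, 3.05 and 2.70 on starburst arrays, against 2.19, 2.50 and 2.19 on cone arrays. In the limma fit without a filter it had -0.72 in cones (adjusted p = 0.0015) and -0.52 in Arc cells (adjusted p = 0.039) against starburst cells. Both were under the minimum difference. Cdh13, a cadherin anchored to the membrane by a lipid, lay between 2.41 and 3.65.

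Among non-clustered protocadherins, Pcdh9 had 4.44, 4.78 and 4.54 on Arc arrays, against 3.67, 3.97 and 3.35 on cone arrays. These did not overlap, but the adjusted p was 0.18 for the difference of 0.92. Pcdh17 lay between 3.20 and 4.48 and Pcdh18 between 2.94 and 5.10. Pcdh18 had a difference of -0.87 in cones (adjusted p = 0.12), with 3.32, 2.94 and 3.79 on cone arrays and 4.21, 3.94 and 4.52 on starburst arrays. Pcdh12 and Pcdh20 passed the filter level on 3 arrays each. In all, 11 members were above the filter level on all 27 arrays and 12 on none. Those on none had values between 1.68 and 2.82 and included Cdh5, the cadherin of blood vessel endothelium, at 1.83 to 2.37.

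Other genes of cadherin adhesion and signalling were tested in the same fits. None of 11 tested genes of other cadherin subfamilies was called by limma in any of the 4 comparisons, although 1 or 2 in each had an unadjusted p under 0.05. Clstn1 and Celsr1 among them averaged 3.57 and 3.09 in cones, against 3.17 and 3.10 in starburst cells. Of 14 tested catenins and partners, 1 fell in cones, against 5.79% lower over all tested genes. It was Ctnnbl1 at -1.45 (adjusted p = 0.0016), a splicing-associated protein that is not a catenin at cell contacts. It was 1.75 higher in Arc cells than in cones (adjusted p = 2.0e-04). Pkp2, a desmosomal plaque protein, fell in Arc cells by 1.14 against starburst cells (adjusted p = 0.043) and by 1.49 against cones (adjusted p = 0.0023). Without the filter on dim genes its adjusted p against starburst cells was 0.057, which was not called. Ctnnb1, the beta-catenin that links cadherins to alpha-catenin, had -0.68 in cones against starburst cells (adjusted p = 0.0063), and Ctnnd2 had -0.67 (adjusted p = 0.015).

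Of 14 tested genes that regulate clustered protocadherins or act downstream of them, 3 fell in cones against starburst cells, where 5.79% of all tested genes did. These were Nckap1 at -1.51 (adjusted p = 1.9e-04) and Abi1 at -1.48 (adjusted p = 0.0040), both of the WAVE complex that drives actin branching, and the kinase Fyn at -1.20 (adjusted p = 0.045). Fyn was not called without the filter (adjusted p = 0.063). Nckap1 and Fyn were 1.60 and 1.56 higher in Arc cells than in cones. Their slopes over the mixtures were -1.04 (adjusted p = 0.034) and -2.24 (adjusted p = 0.0042). The cohesin subunits Smc1a and Smc3 had -0.46 and 0.20 in cones and were not called. Among 3 tested Usher partners, Clrn1 fell by 1.83 in cones (adjusted p = 0.0079) and by 1.59 in Arc cells (adjusted p = 0.039) against starburst cells. Without the filter the adjusted p in Arc cells was 0.054, which was not called. Over all tested genes 5.79% were called lower in cones and 1.39% lower in Arc cells, each against starburst cells. The slope of Clrn1 was -2.62 (adjusted p = 0.0037). Ush1g and Myo7a were not called in any of the 4 comparisons.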

How the data were processed

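The deposited values are log2 expression values per probe set, which the authors made with RMA (oligo, R 2.11.1), per the submitters' processing notes, which also name mm9. RMA corrects background, equalises arrays and summarises probes, so small differences near background are compressed. No depth applies to arrays, and 3 arrays per group limit precision. Probes were named from GEO's platform annotation: of 22347 probe sets, 19446 had 1 symbol, 735 several and 2166 none. All 56 member probe sets matched RefSeq by Entrez number, and 0 symbols changed. For 133 genes with several probe sets the one of highest mean was used.

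All 27 arrays entered 1 limma 3.58.1 fit in R 4.3.3 (lmFit, eBayes, a mean per group, 18 residual and 3.42 prior degrees of freedom, two-sided, Benjamini-Hochberg over 12441 genes). The steps were tested on simulated data. There, 26% of true log2 changes of 1 were called for cone against starburst and 14% for the slope. At a true size of 2 these shares were 92% and 82%. Most true changes near the minimum would thus not be called. No pair of arrays was identical (0 pairs). The design text says that the titration was sorted 3 times from different mice, so replicate numbers mark sortings there. Same-numbered cone and starburst arrays had deviations correlated at 0.030, 0.014 and 0.056. Among mixtures, 7 of 45 same-numbered pairs were above 0.1 (range -0.029 to 0.27), the highest being the third arrays of mixtures with 150, 157 and 183 cones, at 0.24 to 0.27. The members and gene lists were chosen with earlier results of these data known. Named were all called members, the uncalled ones of highest mean in each kind, Cdh1, Cdh2, Cdh23 and Pcdh15, and from related lists the called genes and up to 2 others. Cdh5, Cdh12, Pcdh8, Cdh8 and members close to a threshold were named after their values were seen. Alternatives covered filter, block, arrays fitted, trend, scaling, minimum difference, probe set rule, slope groups and each left-out array. Figures used matplotlib 3.10.9.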

Additional observations from a re-analysis of the deposited data

How the results depend on the processing

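Of the 35 called member results, 27 kept their call in every alternative that tested them, 7 lost it when 1 array was left out and 7 under another alternative, and 0 reversed. The counts of called members ranged from 11 to 12 for cone against starburst, 3 to 4 for Arc against starburst, 7 to 10 for Arc against cone and 8 to 12 for the slope when 1 array was left out in turn. A filter 1 log2 unit higher left 2 called members for Arc against starburst, since Pcdh19 and Pcdhb14 were no longer tested, and it also dropped Pcdh15. Quantile normalization called 3 members there, all lower, without Pcdh19. With the replicate block the counts were 12, 4, 8 and 12 in the same order, and the block changed no call but that of the slope of Pcdhb15 (-1.40, adjusted p = 0.033). Over the 5 titration groups the slope called 13 members, 8 of them shared with the slope over the 6 mixtures, and over all 8 groups 15, of which 10 were shared. The causes were not tested. Low values near background and 3 arrays per group limit what could be called, and beta probe sets may share signal.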
